A study of Homo sapiens and Mus musculus with 21 samples.

Results

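Ferroptosis is a form of cell death driven by iron-dependent peroxidation of membrane lipids. Of that pathway, 10 genes were followed here, chosen by name: SLC7A11, SLC3A2, GPX4, ACSL4, AIFM2, TFRC, FTH1, FTL, NCOA4 and SLC40A1, or in the mouse Slc7a11, Slc3a2, Gpx4, Acsl4, Aifm2, Tfrc, Fth1, Ftl1, Ncoa4 and Slc40a1. The list was chosen with earlier results of these data known, so its counts and medians beside those of all genes are descriptions. All 10 genes were found in every table, among 60674 genes in each human table and 41214 in the mouse table. The question in the study's title is which dependencies arise in mesothelioma, a tumour of the pleural lining, when it lacks BAP1, a deubiquitinase that acts on histones.

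SLC7A11 and SLC3A2 form the antiporter system xc-, which imports cystine in exchange for glutamate and so supplies cysteine for glutathione. GPX4 uses glutathione to reduce lipid hydroperoxides, AIFM2 (FSP1) reduces coenzyme Q at the membrane, and ACSL4 loads polyunsaturated fatty acids into the lipids that peroxidise. TFRC imports transferrin-bound iron, FTH1 and FTL build the ferritin shell that stores it, NCOA4 delivers ferritin for breakdown, and SLC40A1 (ferroportin) exports iron. Iron regulatory proteins bind hairpins called iron-responsive elements, which block translation of ferritin mRNA and stabilise TFRC mRNA when iron is low. BAP1 is known in other tumour types as a repressor of SLC7A11.

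RNA sequencing gave raw read counts per gene for 21 libraries. Mouse mesothelioma cells of the pleura comprised 3 libraries labelled Bap1-/-;Nf2-/-;Cdkn2ab-/- (BNC, replicates 4 to 6) and 2 labelled Nf2-/-;Cdkn2ab-/- (NC, replicates 4 and 5), so that loss of Nf2 and Cdkn2ab was common to both. The human lines were H2810, labelled Bap1 wildtype in the drug table, H2731, labelled Bap1 mutated, and MSTO-211H, whose BAP1 state the labels do not give. H2810 and H2731 were given DMSO (vehicle) or GSK126, an inhibitor of the histone methyltransferase EZH2. H2810 and MSTO-211H carried a random shRNA or a BAP1 shRNA (shBAP1), with 2 libraries in each human group. Each line stands for a single tumour, and age, dose, time and hairpin sequence are not given in the sources used here. Nothing says that replicates came from separate cultures or animals, so p-values measure only the spread between these libraries, which may be technical.

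Totals ran from 13693927 to 23217215 counts per library. BAP1 was lower with shBAP1 in H2810 (114.8 and 116.9 CPM, counts scaled to library size, against 13.4 and 20.3) and in MSTO-211H (100.1 and 102.7 against 15.4 and 17.7). Mouse Bap1 was at 30.5, 33.3 and 44.1 CPM in BNC and 60.2 and 62.0 in NC, and as the labels do not say which part of the gene is deleted, these counts do not check the label. Leukocyte marker sums were at most 7.03 CPM and erythroid sums at most 0.59 CPM in any library. Fibroblast marker sums were 4073 to 6400 CPM in H2810, 31.4 to 76.7 in MSTO-211H and 4.84 to 6.87 in H2731. In H2810 with DMSO they were mostly COL1A1 (group mean 5528 CPM), with PDGFRA at 403.6, FAP at 22.3 and DCN at 6.99. COL1A2 was at 0.029 CPM in H2810 and 0.025 in H2731 with DMSO. Mesothelial sums were 1625 to 3436 CPM in H2810, 8857 to 11190 in MSTO-211H and 4327 to 5607 in H2731. The mesothelial marker KRT19 was at or under 0.389 CPM in H2810 and MSTO-211H, and HAS1 was at 0 in H2810.

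BNC replicate 6 stood apart in the mouse. Its log2 CPM correlated with BNC replicates 4 and 5 at r = 0.840 and 0.844. Those 2 correlated with each other at 0.995 and with NC replicate 4 at 0.936 and 0.937. The NC libraries correlated with each other at 0.889. NC replicate 4 was thus closer to BNC replicates 4 and 5 than to NC replicate 5. Leaving out BNC replicate 6 therefore does not leave 2 groups of like libraries. Its mesothelial marker Msln was at 0.351 CPM against 488.1 and 561.5 in the other BNC libraries, Krt18 was at 0, and its fibroblast marker sum was 12150 CPM against 1300 and 1558. In NC the fibroblast sums were 4588 and 6577 CPM. Mesothelial sums were 845.1, 915.8 and 132.9 CPM in BNC and 969.1 and 2295 in NC. Fold changes of the mouse members are therefore given with and without that library.

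Matches to the loop of iron-responsive elements in TFRC and FTL are shown because transferrin receptor and ferritin mRNA were called in several comparisons. This search was chosen after values had been seen. A search for a C, any 5 bases and CAGTG on the transcribed strand found 5 matches in the 3′ UTR of TFRC (2658 bases, GENCODE v44, GRCh38) and 1 in the first 50 transcribed bases of FTL (RefSeq, GRCh38.p14). The C and the CAGTG of the loop are in capitals.
TFRC match 1, chr3:196050985-196051007, minus strand: aattatCggaagCAGTGccttcc
TFRC match 2, chr3:196050581-196050603, minus strand: cattatCgggagCAGTGtcttcc
TFRC match 3, chr3:196050534-196050556, minus strand: ttttacCtaccaCAGTGtctgta
TFRC match 4, chr3:196050516-196050538, minus strand: ctgtatCggagaCAGTGatctcc
TFRC match 5, chr3:196050469-196050491, minus strand: aattatCgggaaCAGTGtttccc
FTL, chr19:48965335-48965357, plus strand: ctcttgCttcaaCAGTGtttgga
Of 19229 annotated 3′ UTRs, 34.31% held at least 1 such match and 1.118% at least 5. Of the 4245 that are at least as long as that of TFRC, 205 held at least 5. Of 35116 promoter windows, 1.706% held one in their 50 transcribed bases, including 1 of the 3 windows of SLC3A2. A match describes letters and is not shown to be a site. Pairing of the bases beside the loop was not examined, so the 5 matches of TFRC need not be 5 hairpins.

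Promoter windows of 250 bases before to 50 after the start (RefSeq, GRCh38.p14) were at hand for 8 of the 10 members, in 13 windows. SLC7A11 and FTH1 had no window, so their promoters and first transcribed bases were not searched for any motif. The antioxidant response motif TGANNNNGC, searched on both strands of the 250 bases before the start, occurred in 35.158% of all windows. Among the members searched it occurred in SLC3A2 and AIFM2, which both rose with shBAP1 in H2810. ACSL4 and TFRC also rose there and held no match, and SLC3A2 fell in MSTO-211H. A link between motif and response was not tested. From the matches, 1 of the 3 of SLC3A2 and the only one of AIFM2 are printed, with the motif in capitals.
SLC3A2, chr11:62881646-62881686, plus strand: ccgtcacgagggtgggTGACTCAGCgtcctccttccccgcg
AIFM2, chr10:70132826-70132863, minus strand: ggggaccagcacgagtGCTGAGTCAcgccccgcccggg
The AIFM2 match lies on the reverse strand. The amino acid response motif TGATGNAA, found in 3.144% of all windows, was in none of the 13.

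Levels between genes were compared per kilobase of annotated exon. In every human group FTL was highest (4484 to 9928 CPM per kb as group means) and FTH1 next (344.8 to 2464). GPX4 was the third in H2810 and H2731, and SLC7A11 the third in MSTO-211H, at 101.4 CPM per kb with the random hairpin. AIFM2 lay between 4.34 and 8.96 CPM per kb, and SLC40A1 was lowest in every human group, at or under 0.215. In H2731 with DMSO, SLC7A11 (51.9 to 54.4 CPM per kb) and NCOA4 (51.8 to 52.4) overlapped and could not be ordered. In the mouse Ftl1 and Fth1 again led, and Slc7a11 was far lower on this scale, at 5.85 CPM per kb in BNC and 1.37 in NC. The exon length of TFRC (17376 bases) includes exons of long variants, which lowers its value per kb.

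The knockdown comparison asks what loss of BAP1 mRNA does to these genes. In H2810, 4 members rose and FTH1 fell, where 22.5% of all 15872 genes tested were called higher and 23.3% lower. In MSTO-211H 4 members rose and 3 fell, against 21.7% and 24.5% of all genes. Over all genes in H2810 edgeR called 3576 higher and 3701 lower, and DESeq2 with its own scaling 3129 and 2167. The median log2 fold change of the 9 members tested was 0.13 in H2810 and 0.08 in MSTO-211H, beside -0.03 and -0.02 over all genes tested. A call is an adjusted p under 0.05 from edgeR's quasi-likelihood test with Benjamini-Hochberg adjustment over all genes. Errors on log2 fold changes are SE with n = 2 libraries a group, from a spread that all groups fitted together share. Libraries of the same group differed more in H2810 than in MSTO-211H. The chi-square per degree of freedom between them was 18.21 (random hairpin) and 17.85 (shBAP1) in H2810, and 2.335 and 2.305 in MSTO-211H. The shared spread may thus understate errors in H2810 and overstate them in MSTO-211H. With only the groups compared, all-gene calls went from 7277 to 6280 in H2810 and from 7327 to 8546 in MSTO-211H.

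**Figure D1:**
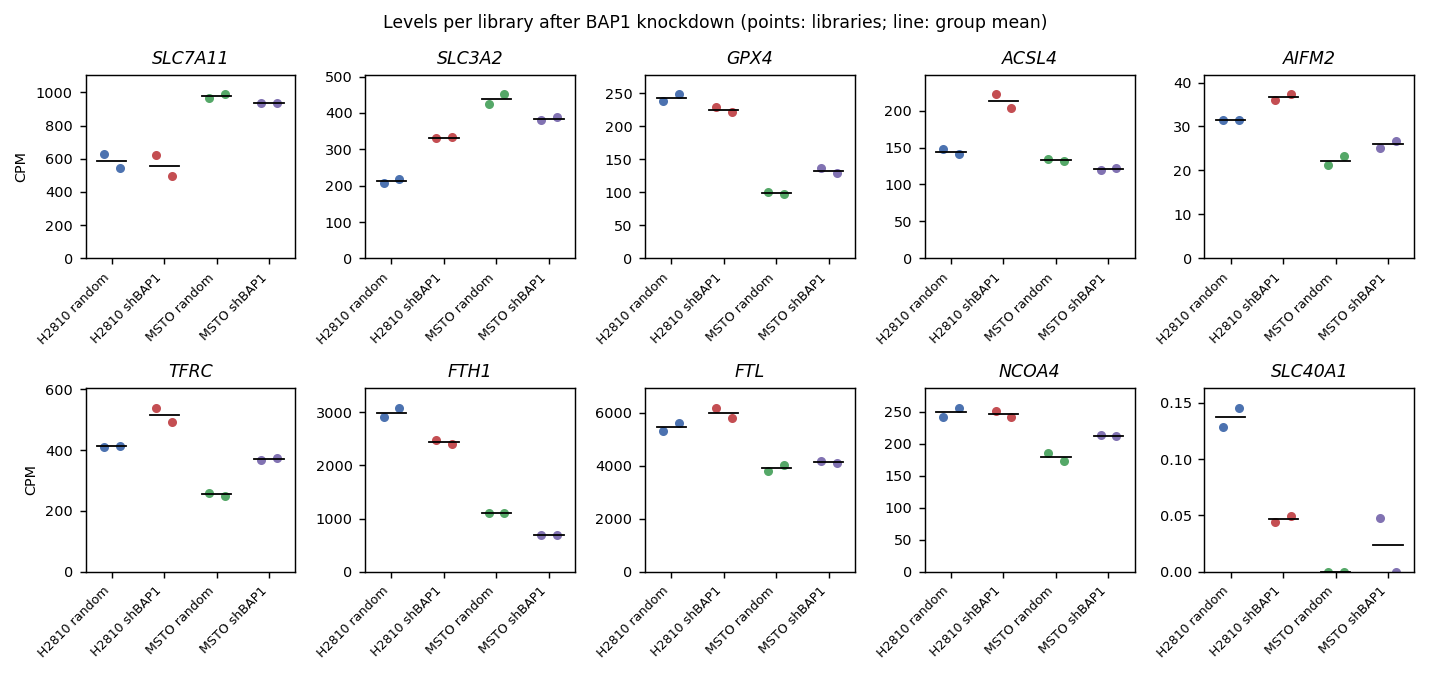
CPM of the 10 members in the 8 knockdown libraries, on linear axes from 0; points are libraries and lines group means. TFRC is higher and FTH1 lower with shBAP1 in both lines, while SLC7A11 of H2810 overlaps between hairpins.

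SLC7A11 (chr4:138164097-138242349, minus strand, GRCh38), the cystine-carrying subunit, was at 630.7 and 546.0 CPM with the random hairpin and 619.9 and 494.2 with shBAP1 in H2810. The groups overlapped, and replicate 2 was the lower library in each. The log2 fold change was -0.08 ± 0.09 (edgeR adjusted p = 0.526), with a 95% interval of -0.28 to 0.13. Leaving out shBAP1 replicate 1 gave -0.24 with an edgeR adjusted p of 0.0173. In MSTO-211H the gene was at 968.4 and 988.4 CPM with the random hairpin and 935.4 and 936.1 with shBAP1. These groups did not overlap, but the log2 fold change of -0.06 ± 0.09 missed the threshold (edgeR adjusted p = 0.611, interval -0.27 to 0.14). A rise of SLC7A11 mRNA above 0.14 on the log2 scale lies outside the intervals of both lines.

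SLC3A2, the heavy chain that carries SLC7A11 to the membrane and also partners other amino acid transporters, moved in opposite directions. In H2810 it rose from 208.4 and 219.3 CPM to 329.6 and 332.8, by 0.63 ± 0.05 (1.55-fold, edgeR adjusted p = 2.61e-06). In MSTO-211H it fell from 424.6 and 451.3 CPM to 379.9 and 388.4, by 0.19 ± 0.05 on the log2 scale (edgeR adjusted p = 0.00887). The groups were separate in each line. The MSTO-211H call was lost without random replicate 2 (edgeR adjusted p = 0.094) or shBAP1 replicate 1 (0.0878). The responses of the lines differed by -0.82 ± 0.07, MSTO-211H minus H2810 (edgeR adjusted p = 1.16e-05). For these interaction tests 11.2% of all genes were called higher and 16.5% lower, and 3 members were called in each direction.

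The count ratio of SLC7A11 to SLC3A2 needs no scaling between libraries. It was 3.03 and 2.49 with the random hairpin in H2810 and 1.88 and 1.49 with shBAP1. In MSTO-211H it was 2.28 and 2.19, then 2.46 and 2.41. The ratio was lower with shBAP1 in H2810 and higher in MSTO-211H, with no overlap of groups in either line.

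GPX4, the glutathione-dependent lipid peroxidase, was at 238.2 and 248.8 CPM in H2810 with the random hairpin and 228.8 and 222.2 with shBAP1. The log2 fold change was -0.11 ± 0.05 and missed the threshold (edgeR adjusted p = 0.0937). In MSTO-211H it rose from 100.3 and 97.8 CPM to 137.1 and 129.2, by 0.43 ± 0.05 (1.34-fold, edgeR adjusted p = 5.15e-05). The responses differed by 0.54 ± 0.07 (edgeR adjusted p = 0.000258).

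ACSL4, which sets the supply of peroxidisable lipid, rose in H2810 from 147.5 and 141.7 CPM to 222.1 and 203.7, by 0.56 ± 0.05 (1.47-fold, edgeR adjusted p = 9.94e-06). In MSTO-211H it was at 134.6 and 132.3 CPM, then 119.3 and 121.8. That fall of 0.15 ± 0.05 on the log2 scale passed narrowly (edgeR adjusted p = 0.0455) and was lost when any 1 of the 4 libraries was left out, with RLE scaling, with no filter and with DESeq2 (adjusted p from 0.113 to 0.223 across these). The responses differed by -0.70 ± 0.08 (edgeR adjusted p = 5.78e-05). The count ratio of ACSL4 to GPX4 went from 0.619 and 0.570 to 0.971 and 0.917 in H2810, and from 1.34 and 1.35 to 0.870 and 0.943 in MSTO-211H. With shBAP1 the ratio was higher in H2810 and lower in MSTO-211H, with no overlap of groups.

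AIFM2, the coenzyme Q reductase, was at 31.5 and 31.5 CPM in H2810 and reached 35.9 and 37.3 with shBAP1. In MSTO-211H it went from 21.3 and 23.2 CPM to 25.2 and 26.6. The log2 fold change was 0.22 in each line (SE 0.06 and 0.07, edgeR adjusted p = 0.0138 and 0.0199), and the groups did not overlap. DESeq2 made neither call (adjusted p = 0.0659 and 0.0852). The H2810 call was also lost without random replicate 1 or shBAP1 replicate 2, and the MSTO-211H call without random replicate 1 or shBAP1 replicate 2. The interval of the difference between the lines' responses was -0.20 to 0.20.

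TFRC (chr3:196027183-196082096, minus strand, GRCh38), the transferrin receptor, rose in both lines. In H2810 it was at 410.6 and 414.2 CPM with the random hairpin and 540.3 and 492.0 with shBAP1, a rise of 0.32 ± 0.05 (1.25-fold, edgeR adjusted p = 0.000455). In MSTO-211H it went from 258.8 and 250.1 CPM to 369.2 and 372.8, a rise of 0.54 ± 0.05 (1.46-fold, edgeR adjusted p = 1.02e-05). Every shBAP1 library was above every random library of its line. The difference of 0.22 ± 0.07 between the responses just passed (edgeR adjusted p = 0.0488) and was lost with RLE scaling, with no filter, with DESeq2 and when any 1 library other than shBAP1 replicate 1 of H2810 was left out.

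FTH1 (chr11:61959718-61967634, minus strand, GRCh38), the ferritin heavy chain, fell in both lines. It went from 2903 and 3090 CPM to 2471 and 2396 in H2810, a fall of 0.30 ± 0.05 on the log2 scale (edgeR adjusted p = 0.000321). In MSTO-211H it went from 1104 and 1100 CPM to 692.2 and 689.8, and fell by 0.67 ± 0.05 (edgeR adjusted p = 7.59e-07). The responses differed by -0.37 ± 0.07 (edgeR adjusted p = 0.00161). Processed FTH1 pseudogenes together held 0.552% to 0.948% of the FTH1 count in the human libraries; FTH1 reads left out of the counts as ambiguous were not measured.

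FTL, the ferritin light chain, was not called in either line. FTL was at 5308 and 5618 CPM, then 6190 and 5802 in H2810 (0.13 ± 0.05, edgeR adjusted p = 0.0522), and at 3793 and 4017, then 4187 and 4091 in MSTO-211H (0.08 ± 0.05, edgeR adjusted p = 0.212). In both lines the shBAP1 libraries were above their controls. In H2810 FTL was called higher by DESeq2, by limma-voom and without the low-count filter (adjusted p = 0.0209, 0.02 and 0.00645), and also without random replicate 2 or shBAP1 replicate 2 (0.00896 and 0.0192). In MSTO-211H it was called when only its 2 groups were fitted (edgeR adjusted p = 0.019).

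The ratio of FTH1 to FTL counts was lower with shBAP1, from 0.547 and 0.550 to 0.399 and 0.413 in H2810, and from 0.291 and 0.274 to 0.165 and 0.169 in MSTO-211H. The ratio of TFRC to FTH1 counts was higher, from 0.141 and 0.134 to 0.219 and 0.205 in H2810, and from 0.234 and 0.227 to 0.534 and 0.541 in MSTO-211H. The mean TFRC to FTH1 ratio was thus 1.54 times its control in H2810 and 2.33 times in MSTO-211H. These ratios are descriptions within a library, do not depend on scaling, and with 2 libraries a group were not tested.

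NCOA4, the ferritinophagy receptor, was at 241.4 and 256.7 CPM in H2810 and 251.4 and 242.7 with shBAP1, overlapping groups with a log2 fold change of -0.01 ± 0.05 (interval -0.13 to 0.10). In MSTO-211H it rose from 185.1 and 173.4 CPM to 213.4 and 212.3, by 0.25 ± 0.05 (edgeR adjusted p = 0.00253). The difference of the responses, 0.26 ± 0.07 (edgeR adjusted p = 0.0231), was lost with no filter (0.147) and without any of 5 single libraries, namely random replicate 2 or shBAP1 replicate 2 of H2810, or random replicate 2 or either shBAP1 library of MSTO-211H (0.0625 to 0.124). SLC40A1 was too low to test, with 3 and 3 counts in H2810 controls, 1 and 1 with shBAP1, none in MSTO-211H controls, and 1 and 0 with shBAP1.

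**Figure D2:**
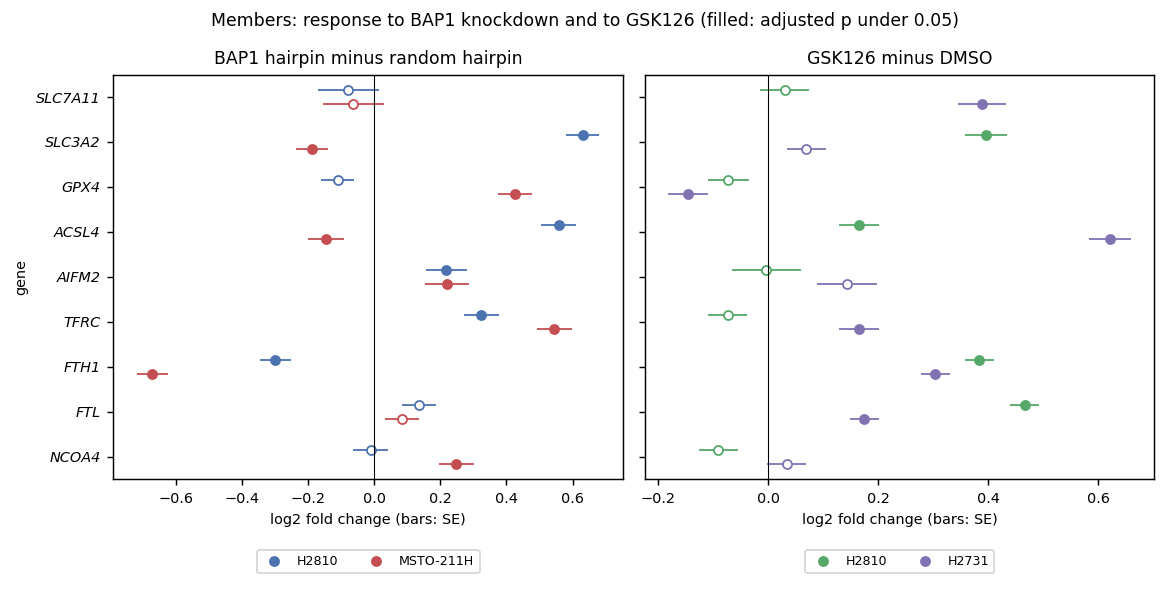
Log2 fold changes (points) and SE (bars) of 9 members, with BAP1 hairpin minus random hairpin on the left and GSK126 minus DMSO on the right; filled points have an edgeR adjusted p under 0.05. FTH1 lies left of 0 in both lines with the hairpin and right of 0 in both lines with GSK126.

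Around the members, 62 genes of related lists were counted, 55 of them tested in the human tables. With shBAP1, 26 rose and 13 fell in H2810, and 20 rose and 12 fell in MSTO-211H. Over all genes tested, 22.5% were called higher and 23.3% lower in H2810, and 21.7% and 24.5% in MSTO-211H. BAP1, the target of the hairpin, is among the falls in each line. In H2810 the rises with the smallest p were TXNRD1, a thioredoxin reductase (0.82), FADS1, a fatty acid desaturase (0.75), and SCD, which makes monounsaturated fatty acids (0.83). The falls were BAP1 (-2.79), MBOAT2, a phospholipid acyltransferase (-0.98), and CYBRD1, a ferrireductase (-0.94). In MSTO-211H SQSTM1, an autophagy receptor that binds KEAP1 (0.60), and SLC11A2, the iron transporter DMT1 (0.43), were among the leading rises. MBOAT2 (-1.64), BAP1 (-2.61) and GCLC, the catalytic subunit of the first enzyme of glutathione synthesis (-1.23), led the falls there. These are log2 fold changes.

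Of 15 other iron genes tested, 7 rose and 3 fell in H2810, and 6 rose and 3 fell in MSTO-211H, with median log2 fold changes of 0.01 and 0.07. Beside the counts of each list, 22.5% of all genes were called higher and 23.3% lower in H2810, and 21.7% and 24.5% in MSTO-211H. Chosen after their values were seen, HMOX1, which frees iron from haem, fell by 0.67 in H2810 and 0.29 in MSTO-211H on the log2 scale. The iron regulatory protein gene IREB2 rose by 0.19 and 0.23 (edgeR adjusted p = 0.0481 and 0.0185). ACO1, the other iron regulatory protein, fell by 0.32 in MSTO-211H and was at -0.10 in H2810 (edgeR adjusted p = 0.113). Of the 6 genes of other defences, 6 rose in H2810 and 3 in MSTO-211H. Of 13 genes of peroxidation substrate and lipid remodelling, 6 rose and 5 fell in H2810, and 3 rose and 4 fell in MSTO-211H. Of 10 regulators, 3 rose and 2 fell in H2810, and 5 rose and 2 fell in MSTO-211H, with BAP1, the target of the hairpin, among the falls in each line. Of 11 genes of glutathione and cysteine supply, 4 rose and 3 fell in H2810, and 3 rose and 3 fell in MSTO-211H. In the interaction test SQSTM1 (0.54) and FADS2 (0.82) responded more positively in MSTO-211H, and TXNRD1 (-1.11), ACSL3 (-0.86) and SCD (-0.82) less so. Fibroblast marker sums were lower with shBAP1, going from 6400 and 5819 CPM to 4731 and 4073 in H2810 and from 76.7 and 64.7 to 32.4 and 31.4 in MSTO-211H, and their part in the members' results was not tested.

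**Figure D3:**
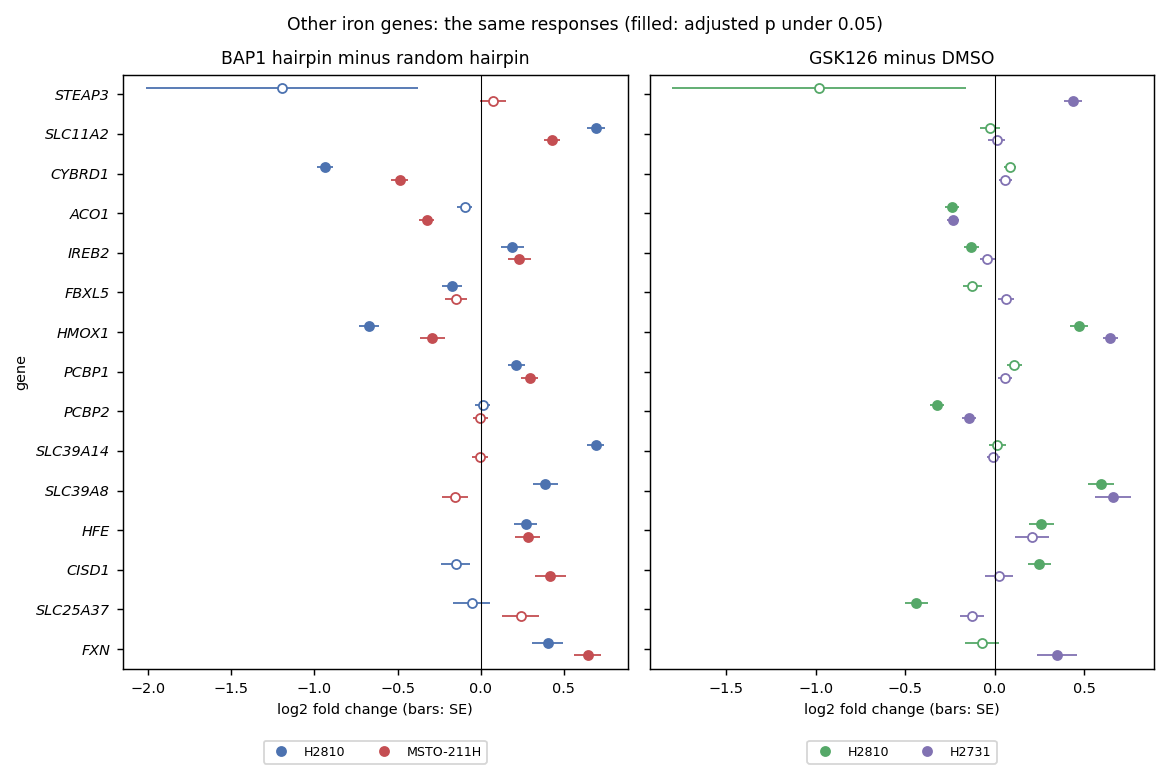
Log2 fold changes (points) and SE (bars) of 15 other iron genes, with BAP1 hairpin minus random hairpin on the left and GSK126 minus DMSO on the right; filled points have an edgeR adjusted p under 0.05. HMOX1 lies left of 0 with the hairpin and right of 0 with GSK126 in the lines shown.

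The lines themselves differed widely with the random hairpin. MSTO-211H against H2810 shares its control libraries with the knockdown tests. SLC7A11 (log2 fold change 0.73 ± 0.09) and SLC3A2 (1.03 ± 0.05) were higher in MSTO-211H, where 39% of all genes were called higher and 40.7% lower. Lower were 6 members: FTH1 (-1.44 ± 0.05), GPX4 (-1.30 ± 0.05), TFRC (-0.70 ± 0.05), AIFM2 (-0.50 ± 0.07), FTL (-0.48 ± 0.05) and NCOA4 (-0.47 ± 0.05). ACSL4 did not pass (-0.12 ± 0.05, edgeR adjusted p = 0.068), though it was called with the stricter filter (0.0455). The adjusted p of the called members ran from 1.17e-10 to 2.43e-05 by edgeR. Calls were so common among all genes that 8 of 9 members called is near the background.

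SLC7A11-AS1, an antisense RNA, had 2563 to 2789 counts in MSTO-211H libraries, 12.1% to 13.8% of the SLC7A11 count, and at most 6 counts in any H2810 or H2731 library. It shares 865 of 9645 exon bases of SLC7A11 in GENCODE v44. No source used here states the strand setting of the counting, so reads of the pair cannot be told apart in that overlap, and the higher SLC7A11 count of MSTO-211H carries that limit. DHODH (3.68), SLC39A14 (2.14) and STEAP3 led the other higher genes, and GCLC (-3.03), CYBRD1 (-2.13) and GCLM (-2.22) the lower ones, as log2 fold changes. STEAP3, an endosomal ferrireductase, had 939 summed counts against 5, a ratio of 197.8 (exact 95% interval 84.5 to 610.6, counting error only).

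The drug comparison asks how the genes respond to EZH2 inhibition. In H2810, 4 members rose and none fell, against 16.3% of 15999 genes called higher and 12.9% lower. In H2731, 5 rose and GPX4 fell, against 13.8% and 10.9%. All-gene calls there were 2210 higher and 1749 lower, and 1280 and 629 with DESeq2 and its own scaling. The median log2 fold change of the 10 members was 0.10 in H2810 and 0.17 in H2731, beside 0 over all genes in each line. EZH2 mRNA itself went from 33.5 and 32.8 CPM to 38.6 and 39.3 in H2810 and from 81.1 and 78.7 to 78.3 and 76.6 in H2731, and an inhibitor of the enzyme need not change its mRNA.

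**Figure D4:**
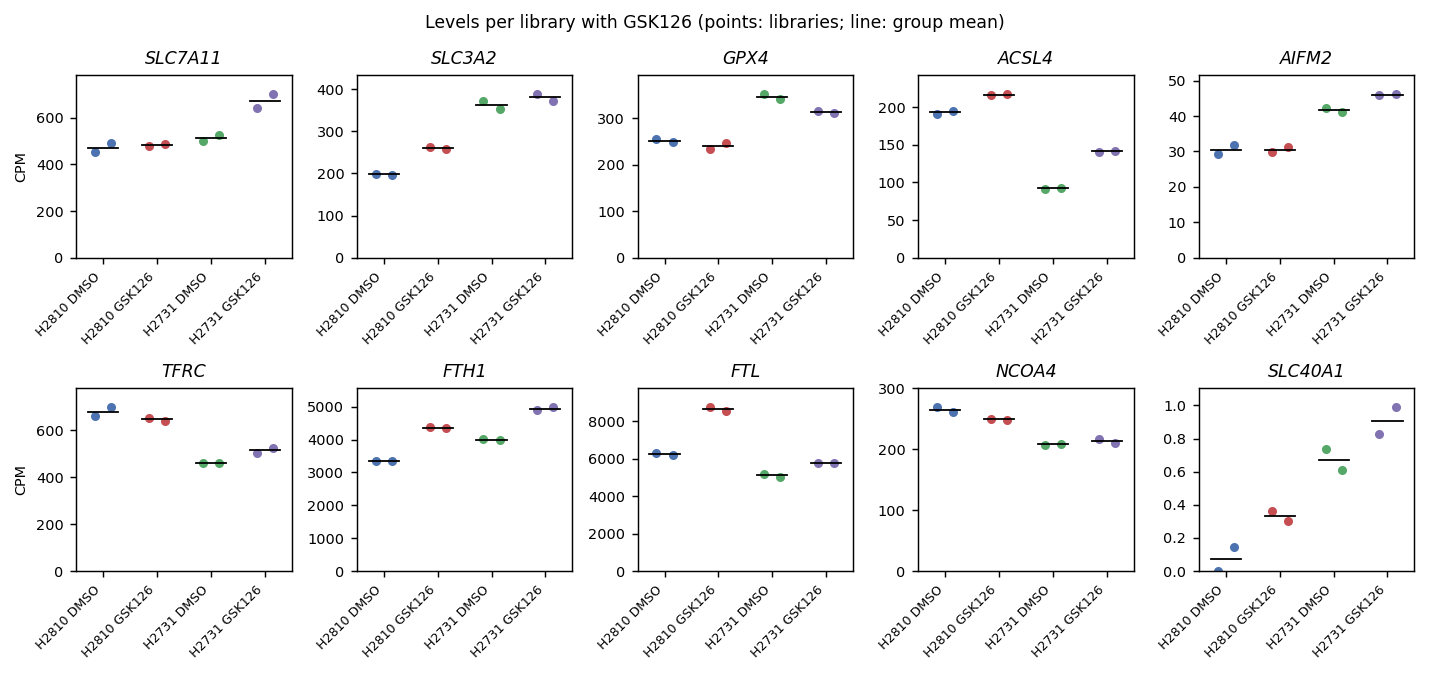
CPM of the 10 members in the 8 drug libraries, on linear axes from 0; points are libraries and lines group means. FTH1, FTL and ACSL4 are higher with GSK126 in both lines, and SLC7A11 overlaps between treatments in H2810 but not in H2731.

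SLC7A11 overlapped between treatments in H2810, at 453.1 and 492.2 CPM with DMSO and 478.2 and 487.0 with GSK126. Its log2 fold change there was 0.03 ± 0.04 (interval -0.06 to 0.12, edgeR adjusted p = 0.677). In H2731 it rose from 500.8 and 524.3 CPM to 641.0 and 701.2, by 0.39 ± 0.04 (1.31-fold, edgeR adjusted p = 1.83e-06). The responses differed by 0.36 ± 0.06, H2731 minus H2810 (edgeR adjusted p = 0.000404), in a test that called 8.08% of all genes higher and 6.66% lower, and 3 members higher and 2 lower.

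SLC3A2 showed the reverse order of lines. It rose in H2810 from 199.4 and 197.3 CPM to 263.2 and 258.8, by 0.40 ± 0.04 (1.32-fold, edgeR adjusted p = 1.35e-07). In H2731 it was at 372.0 and 352.6 CPM, then 388.0 and 372.5, with a log2 fold change of 0.07 ± 0.04 that did not pass (edgeR adjusted p = 0.184). The responses differed by -0.33 ± 0.05 (edgeR adjusted p = 0.000179). Both genes encode chains of the same antiporter, and 1 was called in each line.

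ACSL4 rose in both lines. It went from 191.1 and 195.0 CPM to 215.9 and 217.1 in H2810 (0.16 ± 0.04, edgeR adjusted p = 0.00154). In H2731 it went from 90.9 and 93.2 to 140.8 and 142.3 (0.62 ± 0.04, 1.54-fold, edgeR adjusted p = 5.46e-10). No treated library overlapped a control, and the responses differed by 0.46 ± 0.05 (edgeR adjusted p = 3.55e-06).

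GPX4 was at 255.4 and 249.2 CPM, then 233.4 and 246.3 in H2810 (-0.07 ± 0.04, edgeR adjusted p = 0.163). In H2731 it fell from 352.1 and 341.8 to 316.4 and 311.0, by 0.15 ± 0.04 on the log2 scale (edgeR adjusted p = 0.00577). That call was lost without DMSO replicate 1 (0.0535) or GSK126 replicate 2 (0.0649). The ratio of ACSL4 to GPX4 counts went from 0.748 and 0.782 to 0.925 and 0.881 in H2810, and from 0.258 and 0.273 to 0.445 and 0.458 in H2731, higher in every treated library. AIFM2 passed in neither line, at 29.2 and 31.9 CPM then 29.9 and 31.2 in H2810 (interval of the log2 fold change -0.14 to 0.13), and at 42.2 and 41.05 then 45.8 and 46.2 in H2731 (0.14 ± 0.05, edgeR adjusted p = 0.0608).

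FTH1 rose in both lines, from 3343 and 3346 CPM to 4372 and 4356 in H2810 (0.38 ± 0.03, edgeR adjusted p = 1.42e-09) and from 4012 and 3988 to 4901 and 4975 in H2731 (0.30 ± 0.03, edgeR adjusted p = 6.02e-08). The difference of these responses did not pass in edgeR (-0.08 ± 0.04, adjusted p = 0.182) and passed in limma-voom (0.0123). FTL rose from 6332 and 6187 CPM to 8739 and 8555 in H2810 (0.47 ± 0.03, edgeR adjusted p = 7.84e-11) and from 5168 and 5052 to 5751 and 5786 in H2731 (0.17 ± 0.03, edgeR adjusted p = 6.37e-05). The FTL responses differed by -0.29 ± 0.04 (edgeR adjusted p = 1.41e-05). Both ferritin chains were higher in every treated library than in any control of the line.

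TFRC was at 663.3 and 698.0 CPM with DMSO in H2810 and 654.5 and 639.2 with GSK126 (-0.07 ± 0.04, edgeR adjusted p = 0.136). It was called lower there without DMSO replicate 1 (-0.11, edgeR adjusted p = 0.0492). In H2731 it rose from 459.5 and 459.2 to 503.4 and 526.8 (0.17 ± 0.04, edgeR adjusted p = 0.00199), a call lost without GSK126 replicate 2 (0.053). The responses differed by 0.24 ± 0.05 (edgeR adjusted p = 0.00248). The ratio of TFRC to FTH1 counts was lower with GSK126 in each line, from 0.198 and 0.209 to 0.150 and 0.147 in H2810 and from 0.115 and 0.115 to 0.103 and 0.106 in H2731. In H2731 TFRC (0.17) rose by less than FTH1 (0.30). The mean ratio of TFRC to FTL counts was 0.688 times its control in H2810 and 0.993 times in H2731.

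NCOA4 did not pass in either line by edgeR, at 268.3 and 261.6 CPM then 250.1 and 247.4 in H2810 (-0.09 ± 0.04, adjusted p = 0.0599) and 206.5 and 208.9 then 215.8 and 209.4 in H2731 (0.03 ± 0.04, adjusted p = 0.551). SLC40A1, the only known iron exporter, was close to the counting floor, with 0 and 3 counts in H2810 with DMSO, 7 and 6 with GSK126, 17 and 12 in H2731 with DMSO, and 17 and 21 with GSK126. In H2810 the ratio of summed counts was 4.23 with an exact 95% interval of 1.16 to 23.1, which covers counting error only, and the edgeR test did not pass (adjusted p = 0.0691). It passed in limma-voom (0.0269) and without DMSO replicate 2, the control library that held the 3 counts (edgeR adjusted p = 0.025).

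Of the 55 related genes tested, 18 rose and 12 fell in H2810, and 22 rose and 5 fell in H2731. Over all genes tested, 16.3% were called higher and 12.9% lower in H2810, and 13.8% and 10.9% in H2731. Of 13 genes of peroxidation substrate and lipid remodelling, 8 rose and none fell in each line, with a median log2 fold change of 0.17 and 0.37. That list joins genes of different roles, among them SCD, which makes monounsaturated fatty acids. Its counts do not measure the supply of peroxidisable lipid. SCD rose by 0.89 and 1.09 and FADS1 by 0.42 and 0.56 in H2810 and H2731. SQSTM1 (0.65) was also among the leading rises in H2810, and ACSL1, another acyl-CoA synthetase (1.03), in H2731. PCBP2, an iron chaperone (-0.32), NFE2L2, the antioxidant factor NRF2 (-0.26), and PRDX6, a peroxidase (-0.28), led the falls in H2810. PRDX6 (-0.31) and ACO1 (-0.23) were among the leading falls in H2731. HMOX1, named after its values were seen, rose by 0.47 and 0.64. In the interaction test GSR (0.51), GCLM (0.48) and NFE2L2 (0.40) responded more positively in H2731, and SQSTM1 (-0.42), LPCAT3 (-0.43) and EZH2 (-0.28) less so. Mesothelial marker sums were lower with GSK126 (3436 and 3253 CPM to 2412 and 2394 in H2810, 5607 and 5156 to 4369 and 4327 in H2731), and their part in the members' results was not tested. They were mostly keratins. As group means in H2810, KRT8 went from 2112 to 1537 CPM and KRT18 from 996.0 to 670.7. In H2731 KRT8 went from 2003 to 1816, KRT18 from 1561 to 1349 and KRT19 from 1300 to 822.9. Other markers went the opposite way, as PDPN in H2810 (20.3 to 32.1) and CALB2 in H2731 (2.63 to 3.99). Endothelial marker sums were higher with GSK126 in H2810, at 19.3 and 19.6 CPM against 11.2 and 11.5, and were at most 1.61 CPM in H2731; their part was not tested either.

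All 10 members differed between H2731 and H2810 with DMSO, where 41.5% of genes were called higher and 40.7% lower, and these libraries are also the controls of the drug tests. Higher in H2731 were SLC40A1, SLC3A2 (0.87 ± 0.04), GPX4 (0.46 ± 0.04), AIFM2 (0.44 ± 0.06), FTH1 (0.26 ± 0.03) and SLC7A11 (0.12 ± 0.04). Lower were ACSL4 (-1.07 ± 0.04), TFRC (-0.57 ± 0.04), NCOA4 (-0.35 ± 0.04) and FTL (-0.29 ± 0.03). SLC40A1 had 29 summed counts against 3, a ratio of 8.59 (exact 95% interval 2.66 to 44.1, counting error only; edgeR adjusted p = 0.000368). The SLC7A11 call (edgeR adjusted p = 0.0215) was lost with the stricter filter, when only the 2 groups were fitted, without H2731 DMSO replicate 2 and without H2810 DMSO replicate 1 (0.06 to 0.236). Line and BAP1 state cannot be told apart in this comparison. FADS2 (5.99), STEAP3 and FADS1 (1.54) led the other higher genes as log2 fold changes. STEAP3 had 1919 summed counts against 6, a ratio of 284.3 (exact 95% interval 130.4 to 775.7). MGST1, a microsomal glutathione transferase, led the lower ones, with 2138 summed counts in H2810 and 2 in H2731, a ratio of 1203 (exact 95% interval 332.5 to 9936). NQO1 (-1.43) and CYBRD1 (-1.50) followed.

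The mouse comparison asks how cells that lack Bap1 beside Nf2 and Cdkn2ab differ from cells that lack the latter only. No member was called by edgeR's quasi-likelihood test, nor was any of 12225 genes (0% higher and 0% lower), where 823 genes had an unadjusted p under 0.05. That number was 2624 without BNC replicate 6, 369 without BNC replicate 4 and 359 without BNC replicate 5, with no gene called in any of these fits. DESeq2 called 359 genes and limma-voom 0. By edgeR, 4 members had an unadjusted p under 0.05: Slc7a11, Slc3a2, Aifm2 and Ftl1. The median log2 fold change of the 10 members was 0.61, beside 0.03 over all genes. An exact two-sided permutation test of 3 against 2 libraries cannot give a p below 0.2, and it gave 0.2 for each of these 4.

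**Figure D5:**
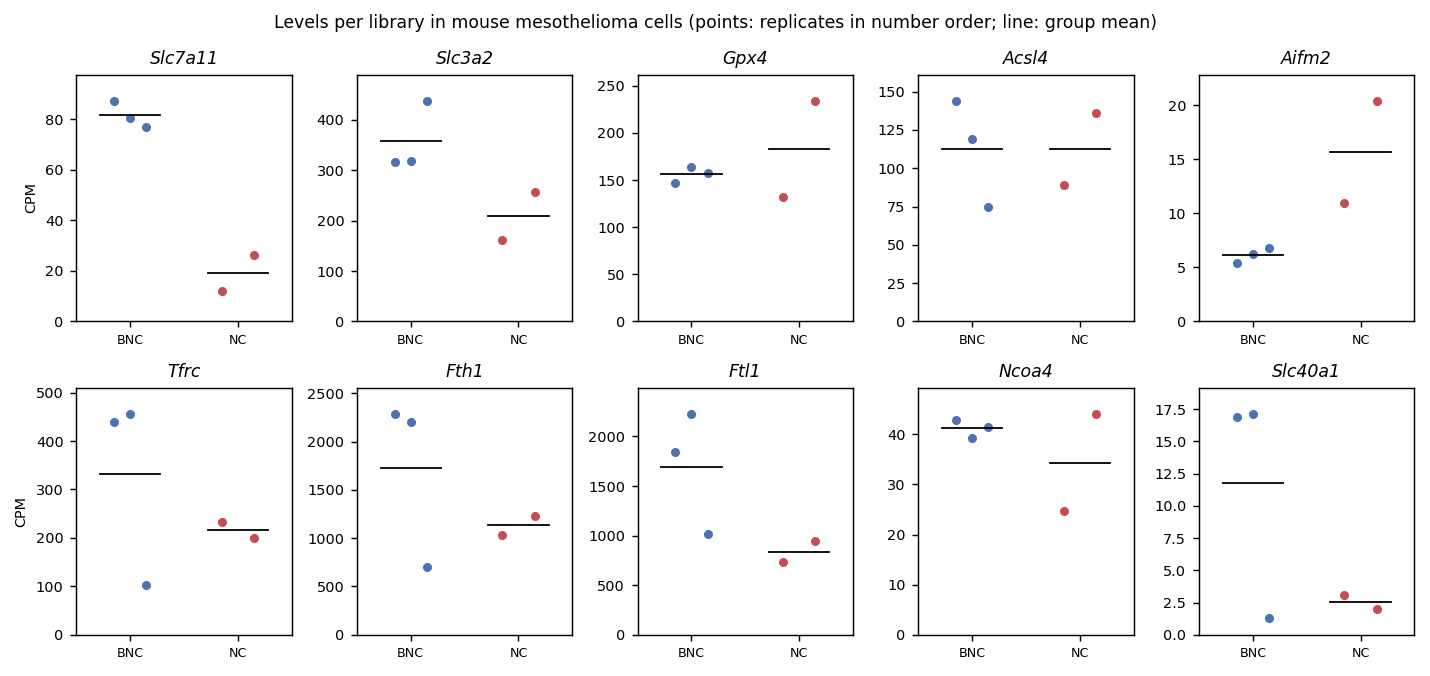
CPM of the 10 mouse members in 3 BNC and 2 NC libraries, on linear axes from 0; points are libraries in the order of their numbers and lines group means. Slc7a11 is higher in all 3 BNC libraries than in either NC library, and BNC replicate 6 departs from replicates 4 and 5 for Tfrc, Fth1 and Slc40a1.

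Slc7a11 (chr3:50364936-50443613, minus strand, GRCm38) was at 87.2, 80.5 and 76.7 CPM in BNC and at 12.02 and 26.1 in NC. All 3 BNC libraries were above both NC libraries, replicate 6 included. The log2 fold change was 2.09 ± 0.39 (4.27-fold, 95% interval 1.11 to 3.08, edgeR adjusted p = 0.497). DESeq2 gave 2.09 with an adjusted p of 0.000137. Without replicate 6 the edgeR value was 2.12 (adjusted p = 0.121), and over all libraries left out in turn it lay between 1.64 and 2.76 (adjusted p from 0.121 to 1).

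Slc3a2 was at 316.4, 318.9 and 437.1 CPM in BNC and 161.5 and 256.5 in NC, a log2 fold change of 0.77 ± 0.30 (edgeR adjusted p = 0.722). The groups did not overlap. The ratio of Slc7a11 to Slc3a2 counts was 0.276, 0.252 and 0.176 in BNC and 0.0744 and 0.102 in NC, higher in every BNC library. Aifm2 was lower in every BNC library, at 5.38, 6.28 and 6.81 CPM against 10.9 and 20.4 (-1.35 ± 0.38, edgeR adjusted p = 0.589). Endothelial marker sums were also lower in every BNC library, at 2.69, 3.29 and 0.22 CPM against 9.85 and 49.8, and their part in these results was not tested. Of the 4 endothelial markers, 2, 1 and 4 were detected in the BNC libraries and 1 and 2 in NC, so the NC sums rest on few genes. Ftl1 was higher in every BNC library, at 1842, 2223 and 1013 CPM against 732.1 and 942.2 (1.02 ± 0.40, edgeR adjusted p = 0.738). Without BNC replicate 6 the log2 fold changes were 0.60 for Slc3a2, -1.44 for Aifm2 and 1.27 for Ftl1 (edgeR adjusted p = 0.284, 0.155 and 0.109).

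A split among the BNC libraries ran through 3 iron genes. Tfrc was at 439.8, 455.3 and 103.2 CPM in BNC and 232.1 and 200.3 in NC, so replicate 6 lay below both NC libraries and the others above. Fth1 was at 2282, 2207 and 697.9 CPM against 1037 and 1234, with the same split. Slc40a1 was at 16.9, 17.1 and 1.27 CPM against 3.11 and 2.02, again with the same split. The fibroblast marker sum of replicate 6 moved with this split, and its part was not tested. Their log2 fold changes were 0.62, 0.61 and 2.20 with all libraries, and 1.04, 0.98 and 2.73 without replicate 6 (edgeR adjusted p = 0.104, 0.109 and 0.0948), none of them called. Leukocyte marker sums, given because macrophages export iron through Slc40a1, were 5.98, 7.03 and 4.74 CPM in BNC and 3.04 and 5.66 in NC.

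Gpx4 (146.7, 164.0 and 157.4 CPM against 131.5 and 233.8), Acsl4 (143.9, 119.1 and 74.4 against 89.3 and 136.0) and Ncoa4 (42.8, 39.2 and 41.5 against 24.7 and 43.98) overlapped between the genotypes. Their intervals were wide, from -0.95 to 0.49 for Gpx4, -0.91 to 0.91 for Acsl4 and -0.49 to 1.02 for Ncoa4, all on the log2 scale. Without BNC replicate 6 the values were -0.24, 0.21 and 0.24, beside -0.23, -0.003 and 0.26 with it, and none was called. Changes of the size of these intervals were not detectable with these 5 libraries. Of 56 related genes tested in the mouse, none was called by edgeR.

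Over the 16 human libraries, with log2 CPM centred within each table and line, those most like SLC7A11 among 11326 genes included MAP1B (Pearson r = 0.961), PAPPA (0.953), PTPN13 (0.901) and SLK (0.896). SLC3A2 had r = -0.045 with SLC7A11 over the same libraries, and ACSL4 had 0.542. The points share libraries, depth and control groups, so these r are descriptions.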

How the data were processed

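The authors deposited raw read counts per Ensembl gene, as whole numbers with no normalization, per the file headers and values. The submitters' processing notes name TopHat2 2.0.12, TopHat, HTSeq and DESeq2, and give GRCm38 (mm10) as a build. For the human tables no build is named, nor is an annotation or strand setting, in the sources used here. All 10 members overlap their GENCODE v44 (GRCh38) or vM21 (GRCm38) gene by position. Per the labels' protocols, poly-A libraries were sequenced single-end. A nameless entry among the knockdown counts (0% of them) was dropped.

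The 3 tables were fitted separately, every group included, by edgeR 4.0.16 under R 4.3.3: filterByExpr (minimum count 10), TMM scaling, quasi-likelihood F tests, Benjamini-Hochberg adjustment over all genes tested, calls at an adjusted p under 0.05. The SE is the log2 fold change over the square root of F. CPM use the TMM-adjusted size. Alternatives were RLE scaling, no filter, DESeq2 1.42.0, a stricter filter (50 counts or more in 2 libraries), limma-voom 3.58.1, only the groups compared, a replicate block and each library left out. The fit was tested on simulated data. H2810 occurs in both human tables, and levels across tables were not tested. All 10 members are named, and from 5 related lists at most 3 called rises and 3 called falls with the smallest p per comparison, plus BAP1 and EZH2. A few genes that this rule or the search for similar patterns selects are not reported here. Members and lists were chosen with earlier results of these data known. Depth was 13693927 to 23217215 counts per library. Intervals on counts cover counting error only.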

Additional observations from a re-analysis of the deposited data

Results flagged for a closer look

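The responses of 6 members to shBAP1 differed between the lines by edgeR's interaction test, as MSTO-211H minus H2810 on the log2 scale: SLC3A2 by -0.82, GPX4 by 0.54, ACSL4 by -0.70, TFRC by 0.22, FTH1 by -0.37 and NCOA4 by 0.26. In the same test 11.2% of all genes were called higher and 16.5% lower. SLC3A2 and ACSL4 rose in H2810 and fell in MSTO-211H, whereas TFRC and FTH1 moved the same way in both lines and further in MSTO-211H. The calls of SLC3A2 and ACSL4 as lower in MSTO-211H were lost under some alternatives, as were those of the TFRC and NCOA4 differences. The TFRC and NCOA4 differences have the largest adjusted p of the 6 (0.0488 and 0.0231).

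The responses of 5 members to GSK126 differed between the lines, as H2731 minus H2810: SLC7A11 by 0.36, SLC3A2 by -0.33, ACSL4 by 0.46, TFRC by 0.24 and FTL by -0.29. In the same test 8.08% of all genes were called higher and 6.66% lower. The 2 chains of the cystine antiporter stand on opposite sides of this list. What separates the responses of the lines was not tested.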

How the results depend on the processing

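No call of a member changed direction under any alternative. The number of members called kept within 1.5 times its value everywhere except in the mouse, where DESeq2 called 1 member (Slc7a11) and edgeR 0. With each library left out in turn, an arm of a human group was left with 1 library, which is assumed to vary like the others. Over all genes, calls moved by over 1.5 times for GSK126 in H2810 (4681 against 2527 with DESeq2), GSK126 in H2731 (3959 against 1909 with DESeq2, 2619 without DMSO replicate 1 and 2338 without GSK126 replicate 2), the difference of the drug responses (2358 against 1277 with DESeq2) and the mouse (0 against 359 with DESeq2 and 1 with the replicate block). Residuals of same-numbered libraries correlated at -0.0646 to 0.0979 in the human tables and at 0.336 and -0.306 in the mouse. The mouse values cannot decide whether the numbers mark a batch. Replicate 6 occurs only in BNC, so the block also takes that library out of the mouse comparison. With the block 2116 mouse genes had an unadjusted p under 0.05 by edgeR, against 823 without it. With the replicate block, NCOA4 with GSK126 in H2810 passed (-0.09, edgeR adjusted p = 0.0386), and no other member's call changed. NCOA4 there also passed with the stricter filter (0.0498), limma-voom (0.039) and only the groups compared (0.0473), and AIFM2 with GSK126 in H2731 with the stricter filter (0.05). Precision is limited by the 2 or 3 libraries a group and, for members with few counts such as SLC40A1 and AIFM2, also by depth.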
